A study of Mus musculus with 12 samples.

Results

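In the mouse hippocampus, 30 genes for voltage-gated and related ion channels were examined in mutants without CREB and CREM, 2 related transcription factors, and in their controls, at rest and after kainate. The genes were those whose symbol begins with Kcn, Scn and a digit, Cacn, Hcn and a digit, or Clcn. Of the 12422 probe sets compared, 88 carried exactly 1 such symbol, for 68 of the 8251 genes that the array measured with such probe sets. Each gene was represented by its probe set with the highest mean over the 12 arrays, and the 30 genes whose mean lay above 4 on the log2 scale were kept. The other 38 lay at or below it. Just inside the limit were Hcn3 at 4.13, Kcna4 at 4.19 and Clcn5 at 4.23. Just outside it were Kcna2 at 3.91, Kcnj6 at 3.81 and Kcns2 at 3.62. By prefix, 15 of 42 Kcn genes, 2 of 6 Scn, 6 of 12 Cacn, 2 of 2 Hcn and 5 of 6 Clcn genes were kept. Of the 30 probe sets, 3, for Scn1a, Hcn2 and Cacna1c, are of the _s_at kind, which can match more than 1 transcript, and 3, for Kcnd2, Kcnj9 and Clcn1, of the _r_at kind, designed under relaxed rules.

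The array was the Affymetrix MG-U74A, a mouse oligonucleotide array, and the values were GCRMA log2 intensities. There were 4 groups of 3 arrays: control mice given saline, control mice given kainate, mutant mice given saline and mutant mice given kainate. Kainate, an agonist of glutamate receptors that sets off seizures, was injected into the peritoneum at 20 mg/kg, and the mice were killed 1 hour later. All were littermates of both sexes aged 5 to 6 weeks, housed singly and handled for 5 days. The labels name the mutants only by their loss of CREB and CREM; the alleles, the promoter that drove any deletion and what the controls carried are not given in the sources used here. Each array held pooled hippocampal RNA of 3 animals, so a group stands for 9 mice but for 3 measurements, and the spread between arrays is a spread between pools. In whole-tissue RNA, fewer cells of a type and less RNA per cell cannot be told apart.

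Voltage-gated potassium, sodium and calcium channels open when the membrane is depolarised and together shape the action potential, its spread into dendrites and transmitter release. Inward rectifiers, tandem-pore potassium channels and the hyperpolarisation-activated HCN channels act nearer to rest and set how readily a hippocampal neuron fires. CLC proteins carry chloride, some at the cell surface and others in endosomes and lysosomes. CREB and CREM bind the cAMP response element, a palindrome of the letters TGACGTCA, and drive many genes induced by neuronal activity.

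That element was looked for, on both strands, in a window from 250 bases before to 50 bases after each annotated start of a gene, in RefSeq promoters of GRCm38.p6. A gene counted if any of its promoters held the letters. The search covered 43 promoters for 27 channel genes, 8409 for 6573 genes on the array and 32851 for 27025 genes in all. Channel genes thus had more promoters per gene searched, and the shares below are not adjusted for that. Promoters were matched for 27 of the 30 channel genes, and 2 of them, Clcn4 and Clcn3, held all 8 letters, a share of 7.41% against 2.03% of 27025 genes and 3.16% of the 6573 matched genes on the array. The shorter core TGACG, read as CGTCA on the other strand and contained in the full element, stood in 10 of the 27, or 37.0%, against 23.0% of all genes and 33.0% of the array's. The promoters of Clcn4 and Clcn3 are shown because they alone among the 27 hold the full element, and that of Kcnj4 because it had the smallest p of all 30 for kainate averaged over genotypes. Capitals mark the element, or for Kcnj4 the core, and positions are counted from the annotated start that the printed promoter belongs to. The element begins 76 bases before the start in Clcn4 (chr7:7299558-7299807, minus strand) and 11 bases after it in Clcn3 (chr8:60983283-60983312, minus strand), and the core begins 167 bases before the start in Kcnj4 (chr15:79505242-79505491, minus strand). A match is a description of the letters and not of binding.
Clcn4: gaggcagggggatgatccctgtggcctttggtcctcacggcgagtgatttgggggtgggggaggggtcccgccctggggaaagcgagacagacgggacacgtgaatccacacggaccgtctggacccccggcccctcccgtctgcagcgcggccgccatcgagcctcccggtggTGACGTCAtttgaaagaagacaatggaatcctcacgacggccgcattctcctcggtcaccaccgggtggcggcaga
Kcnj4: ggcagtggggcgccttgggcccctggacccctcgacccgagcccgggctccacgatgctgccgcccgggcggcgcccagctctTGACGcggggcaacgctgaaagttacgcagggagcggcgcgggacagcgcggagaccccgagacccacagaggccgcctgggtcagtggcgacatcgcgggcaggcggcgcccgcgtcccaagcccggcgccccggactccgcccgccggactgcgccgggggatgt
Clcn3: cgtcaacgcgcTGACGTCAcgcgcgtgcga

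Of the immediate early genes, 9 of 9 were higher after kainate, averaged over genotypes, with a median log2 difference of 4.75. The means over 12 arrays, which are not comparable between probe sets, were 9.15 for Wfs1 of CA1, 8.75 for Rgs14 of CA2, 3.84 for Prox1 of the dentate gyrus (below the level limit of 4) and 10.89 for Ttr of the choroid plexus. Cell type markers differed between genotypes, in a comparison averaged over treatments in which 0.612% of all probe sets passed. Averaged over treatments, 8 of 13 measured microglial markers were higher in mutants (median log2 difference 0.91; the mean of the list ran from 5.92 to 6.21 over the control arrays and from 6.66 to 7.21 over the mutant arrays). In CA1 markers, 1 of 5 was lower (Wfs1) with a median of -0.53 for the list, and list means ran from 8.19 to 8.87 on control and 7.87 to 8.20 on mutant arrays. Among astrocyte markers 1 of 9 was higher, among CA3 and CA2 markers 1 of 8 was higher, and none passed among 12 general neuronal, 11 interneuron, 5 dentate, 10 oligodendrocyte, 8 endothelial and blood and 10 striatal, thalamic or choroid plexus genes. After kainate, averaged over genotypes, 1 general neuronal gene (Map2) was lower, 1 gene of blood (Hba-a1) was higher and no gene of the other 8 marker lists passed. Of all probe sets, 0.942% passed there. The part of cell composition in the channel values below was not tested.

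The arrays did not behave alike, and the channel genes showed it more than most. In the 4 replicate 1 arrays, Kcna1, which encodes a potassium channel of axons, read 6.65 in control saline, 6.40 in control kainate, 6.35 in mutant saline and 6.14 in mutant kainate, while the 8 arrays of replicates 2 and 3 read from 8.66 to 9.62. The gap, replicate 1 minus the mean of replicates 2 and 3, averaged -2.89 over the 4 groups, a 7.43-fold lower signal whatever the genotype or treatment. Cacna2d1, an alpha2delta subunit of calcium channels, showed a gap of -2.70, Cacng2 (stargazin, which escorts AMPA receptors) -1.67, Clcn4 -1.19 and Kcnh1 -1.04. Cacnb2, a beta subunit of calcium channels, lay 1.09 higher and Kcnab2, an auxiliary subunit of Kv1 channels, 1.05 higher on the replicate 1 arrays. These 7 of 30 genes, or 23.3%, had gaps over 1, against 3.47% of the 6686 probe sets with means above 4. In 6 of the 30 genes all replicate 1 arrays lay below all the others and in 3 above, together 30% against 13.9% of probe sets above 4.

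The size of the gap differed between probe sets of 1 gene. For Clcn4, the probe set with the higher mean, 99672_at, read 8.22 to 8.87 on replicate 1 arrays and 8.97 to 10.19 on the rest. A second Clcn4 probe set, 104704_at, had a gap of -0.30, negative in all 4 groups. The second Kcnab2 probe set, 162182_f_at, had a gap of 0.50, with all replicate 1 arrays above the others. Clcn3 probe set 94464_at had a gap of -0.63, beside -0.10 for the brightest Clcn3 probe set. The labels do not say what set the replicate 1 arrays apart. The log2 ratio of 5′ to 3′ signal of the actin control ran from -1.98 to -1.50 on replicate 1 arrays, -2.19 to -1.65 in replicate 2 and -2.03 to -1.64 in replicate 3; that of Gapdh was 0.05 to 0.07 on replicate 1 arrays and at or below 0.00 on the others. Their part in these gaps was not tested. In replicates 2 and 3 both ratios also split by treatment. Actin ran from -1.87 to -1.64 with saline and from -2.19 to -1.92 with kainate. Gapdh ran from -0.088 to -0.001 with saline and from -0.29 to -0.14 with kainate. In replicate 1, actin was at -1.98 and -1.86 with saline and at -1.63 and -1.50 with kainate. The kainate differences of replicates 2 and 3 cannot be told apart from this split, whose part was not tested. One further array stood apart: the interquartile range of its values was 3.74 on the third control kainate array against 4.40 to 4.61 on the other 11. Every group holds 1 replicate 1 array, but the gap was not the same in every group. For Kcnj4 it was -0.54 and -0.71 in control and mutant saline and 0.32 and -0.31 in control and mutant kainate, for Clcn4 -1.48 and -1.58 in saline and -0.79 and -0.90 in kainate, and for Cacnb2 0.59 and 0.32 in saline and 2.43 and 1.04 in kainate. The replicate 1 arrays thus entered both the spread within groups and the kainate difference of these genes. Channel comparisons are given for all 12 arrays. For several genes they are also given for replicates 2 and 3 alone and, without a test, for replicate 1 alone.

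With all 12 arrays, none of the 30 channel genes differed between saline and kainate or between genotypes at an adjusted p below 0.05, in limma with Benjamini-Hochberg adjustment over all 12422 probe sets. For kainate in controls, 0 of 30 passed against 0.33% of all probe sets. For kainate in mutants it was 0 against 0.298%, and for kainate averaged over both genotypes 0 against 0.942%. At an unadjusted p below 0.05 the counts were 3 of 30 (background 7.37%), 3 of 30 (6.28%) and 7 of 30, or 23.3% (11.9%), in the same order. The 30 genes were kept for means above 4, whereas these and the later backgrounds cover probe sets at every level. None of the 38 channel genes at or below 4 had an unadjusted p below 0.05 in these comparisons. The shares are therefore not of like sets, and a higher one is not an excess among channel genes. The median absolute difference for kainate averaged over genotypes was 0.19 for the channel genes, against 0.14 for the 6686 probe sets above 4, and 20 of the 30 differences were negative, where 40.7% of probe sets above 4 were positive. The 95% interval lay wholly within a 2-fold change in either direction for 23 of the 30 genes. None of the 38 genes at or below level 4 passed in any comparison.

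Among the inward rectifiers, Kcnj4 and Kcnj9 had lower means after kainate in both genotypes. Kcnj4 encodes a strong inward rectifier of forebrain neurons that holds the resting potential. In replicates 1, 2 and 3, its values were 6.51, 7.002 and 7.10 in control saline, 6.54, 6.19 and 6.25 in control kainate, 6.49, 7.17 and 7.23 in mutant saline, and 6.16, 6.34 and 6.61 in mutant kainate. Both saline groups were high in replicates 2 and 3 and low in replicate 1, so that saline and kainate arrays overlapped in each genotype. The log2 difference, kainate minus saline, was -0.55 ± 0.22 (SE) in controls (adjusted p = 0.601) and -0.59 ± 0.22 in mutants (adjusted p = 0.660). Averaged over genotypes it was -0.57 ± 0.16 (95% interval -0.92 to -0.22; limma adjusted p = 0.144).

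In replicates 2 and 3 alone, all 4 saline values of Kcnj4 (7.002 to 7.23) lay above all 4 kainate values (6.19 to 6.61). The difference in these 8 arrays was -0.78 ± 0.09 (limma adjusted p = 0.00641), and it was -0.84 ± 0.12 in controls (adjusted p = 0.0350; 1 of 30 channel genes and 1.18% of all probe sets passed) and -0.72 ± 0.12 in mutants (adjusted p = 0.0550). In replicate 1 alone it was -0.15, made of 0.03 in controls and -0.33 in mutants. With replicate 1 entered as a block over all 12 arrays, the averaged difference had an adjusted p of 0.0492 (2.68% of all probe sets passed in that fit). Without the third control kainate array, the same block gave -0.52 ± 0.14 (adjusted p = 0.0740), so that call was lost. Nor did Kcnj4 pass over all 12 arrays with the replicate number as the block. The call rested on how the replicate 1 arrays were treated, and it was also reached when the mutant saline replicate 1 array alone was left out (adjusted p = 0.0407).

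Kcnj9 encodes a G-protein-gated subunit that slows firing when inhibitory receptors are engaged. Its values in replicates 1, 2 and 3 were 8.99, 9.02 and 9.35 in control saline, 8.35, 8.12 and 9.31 in control kainate, 9.25, 9.32 and 9.45 in mutant saline, and 8.01, 8.95 and 8.85 in mutant kainate. The kainate arrays lay below all saline arrays in mutants, while in controls the third kainate array reached the saline level. The difference averaged over genotypes was -0.63 ± 0.22 (adjusted p = 0.249), with -0.52 ± 0.31 in controls (adjusted p = 0.729) and -0.74 ± 0.31 in mutants (adjusted p = 0.733). A second Kcnj9 probe set, 98332_at, gave -0.37 ± 0.18 (adjusted p = 0.491). Kcnj3, the partner subunit of G-protein-gated channels, and Kcnj8, a subunit of ATP-sensitive channels of vessel walls, had averaged differences of -0.13 ± 0.12 and 0.08 ± 0.09.

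**Figure D1:**
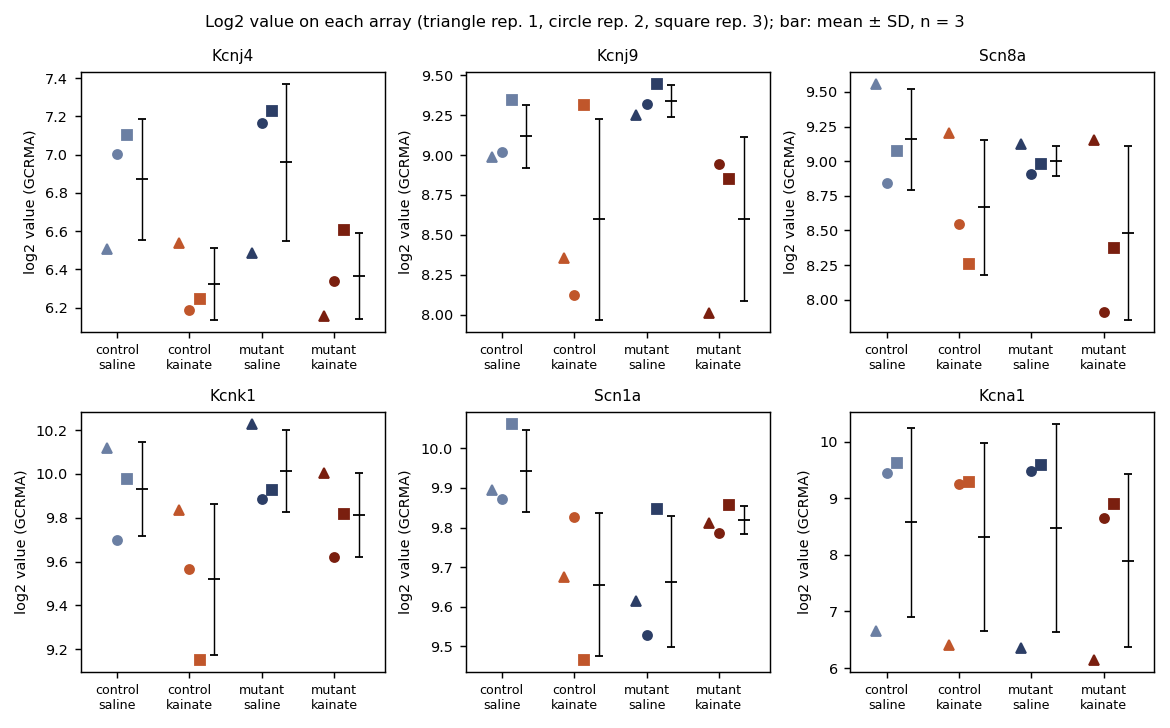
Log2 values (vertical axes, each panel on its own scale) of 6 channel genes on each array, by group; triangles are replicate 1, circles replicate 2, squares replicate 3, and bars show mean ± SD of 3 arrays. For Kcnj4 the circles and squares of both saline groups lie at 7.002 to 7.23, above all kainate points, while the triangles of saline lie near 6.5. For Kcna1 the triangles lie at 6.14 to 6.65 over the groups.

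Among the pore-forming subunits of voltage-gated potassium channels, Kcnd2 had the largest positive difference. It encodes the dendritic A-type channel that limits the back-propagation of action potentials in CA1. Its brightest probe set, 99339_r_at, read 9.42, 9.13 and 9.02 in control saline, 9.25, 9.92 and 9.60 in control kainate, 9.12, 8.41 and 8.89 in mutant saline, and 9.30, 9.28 and 9.34 in mutant kainate. The kainate arrays were above all saline arrays in mutants and overlapped them in controls. The averaged difference was 0.45 ± 0.14 (95% interval 0.14 to 0.76; adjusted p = 0.200), with 0.40 ± 0.20 in controls (adjusted p = 0.724) and 0.50 ± 0.20 in mutants (adjusted p = 0.703). In replicates 2 and 3 it was 0.67 ± 0.13 (adjusted p = 0.0306), and in replicate 1 it was 0.01.

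A second Kcnd2 probe set pointed the other way. Probe set 98364_at read 7.49, 8.01 and 7.83 in control saline, 7.74, 7.50 and 6.60 in control kainate, 7.26, 7.23 and 7.49 in mutant saline, and 7.51, 6.38 and 7.02 in mutant kainate. Its lowest values were the third control kainate array and the second mutant kainate array. Its averaged difference was -0.43 ± 0.23 (adjusted p = 0.538), so the 2 probe sets of 1 gene give no common direction for Kcnd2.

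Kcna1, described above for its gap, differed by -0.42 ± 0.85 over all arrays (95% interval -2.29 to 1.45; adjusted p = 0.900), and the estimate ranged from -0.95 to 0.06 when single arrays were left out. In replicates 2 and 3, where it read 9.45 and 9.62 in control saline, 9.26 and 9.29 in control kainate, 9.49 and 9.59 in mutant saline, and 8.66 and 8.89 in mutant kainate, each kainate value lay below each saline value. The difference there was -0.52 ± 0.09 (adjusted p = 0.0209), and in replicate 1 it was -0.23. With replicate 1 as a block it was -0.42 ± 0.08 (adjusted p = 0.0317). The other members of this class had averaged differences of -0.19 ± 0.11 (Kcna4, an A-type channel of axons), 0.04 ± 0.33 (Kcnh1) and 0.16 ± 0.16 (Kcnh2, the ERG channel), and the auxiliary subunits Kcnab1 and Kcnab2 of 0.13 ± 0.12 and -0.06 ± 0.32.

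Kcnk1, a tandem-pore channel that contributes to resting conductance, read 10.12, 9.70 and 9.98 in control saline, 9.84, 9.57 and 9.15 in control kainate, 10.23, 9.89 and 9.93 in mutant saline, and 10.004, 9.62 and 9.82 in mutant kainate. Kainate and saline arrays overlapped in each genotype, and the averaged difference of -0.31 ± 0.13 had an adjusted p of 0.369. Kcnk2, the stretch-sensitive TREK channel, differed by -0.08 ± 0.16. Of the calcium-activated channels, Kcnma1, the BK channel that speeds repolarisation, differed by -0.21 ± 0.22 and Kcnn1, an SK channel of the afterhyperpolarisation, by 0.13 ± 0.14.

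Both HCN genes read slightly higher after kainate. Hcn3, close to the level limit, read 3.91 to 4.05 in control saline, 4.05 to 4.36 in control kainate, 4.02 to 4.16 in mutant saline and 4.08 to 4.51 in mutant kainate, an averaged difference of 0.21 ± 0.09 (adjusted p = 0.331). Its control groups did not overlap, by a margin that the second decimal does not show. Hcn2, which sets the pacemaker current in many central neurons, differed by 0.19 ± 0.11 (adjusted p = 0.598).

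Of the sodium channels, Scn8a, the main channel of the axon initial segment, read 9.56, 8.85 and 9.07 in control saline, 9.21, 8.54 and 8.25 in control kainate, 9.12, 8.91 and 8.98 in mutant saline, and 9.15, 7.91 and 8.37 in mutant kainate. The 4 replicate 1 arrays were the highest of all, and kainate was below saline mainly in replicates 2 and 3. The averaged difference was -0.51 ± 0.23 over all arrays (adjusted p = 0.407), -0.68 ± 0.13 in replicates 2 and 3 (adjusted p = 0.0299) and -0.16 in replicate 1. A second Scn8a probe set lay at 3.05, below the level limit, and differed by 0.05 ± 0.10.

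Calcium channel subunits gave small or loosely measured differences. Cacna1g, the T-type channel of burst firing, differed by 0.19 ± 0.08 (adjusted p = 0.374) and Cacna1c, the L-type channel that couples activity to transcription, by -0.15 ± 0.23. Cacnb2 had the most negative difference, -0.84 ± 0.47 (95% interval -1.88 to 0.20), and its control kainate values of 6.16, 4.69 and 2.78 spread over more than 3 log2 units. Cacna2d1, Cacna2d3 and Cacng2 differed by -0.26 ± 0.80, -0.22 ± 0.13 and -0.22 ± 0.50, and a 2-fold change in either direction lay within the intervals of Cacna2d1.

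Among CLC genes, Clcn3, an exchanger of endosomes and synaptic vesicles, was the most tightly measured channel gene of all. It read 10.67 to 10.90 on the 12 arrays, and kainate differed from saline by -0.00 ± 0.06 (95% interval -0.13 to 0.13). Clcn4, its endosomal relative, read 8.60, 10.19 and 9.97 in control saline, 8.87, 9.82 and 9.51 in control kainate, 8.29, 9.91 and 9.82 in mutant saline, and 8.22, 8.97 and 9.29 in mutant kainate. Its difference was -0.35 ± 0.37 over all arrays (adjusted p = 0.900), -0.58 ± 0.12 in replicates 2 and 3 (adjusted p = 0.0344) and 0.10 in replicate 1, and its second probe set gave -0.23 ± 0.13 (adjusted p = 0.574). Clcn5, Clcn7 and Clcn1 differed by -0.25 ± 0.12, 0.08 ± 0.17 and -0.05 ± 0.12. Clcn1 is known as the chloride channel of muscle.

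In replicates 2 and 3, kainate averaged over genotypes reached an adjusted p below 0.05 for 5 of 30 channel genes, Kcnj4, Kcna1, Scn8a and Clcn4 lower and Kcnd2 higher. That is 16.7% against 6.26% of all probe sets in the same 8 arrays. All probe sets include those at or below level 4, whereas the 30 genes were kept above it. In the same 8 arrays, the 5′ to 3′ ratios of actin and Gapdh were lower on every kainate array than on every saline array. The part of that split in these calls was not tested. The second Kcnd2 probe set, over all 12 arrays, gave -0.43 ± 0.23, the opposite sign. With replicate 1 as a block over all 12 arrays, Kcnj4 and Kcna1 passed, while the adjusted p was 0.0667 for Scn8a, 0.130 for Kcnd2 and 0.193 for Clcn4. Those 8 arrays are also part of the 12, so the fits share data, and leaving out replicate 1 removes 4 of the 12 arrays. These 5 genes and the genes outside the rule for named genes were singled out after their values were seen.

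**Figure D2:**
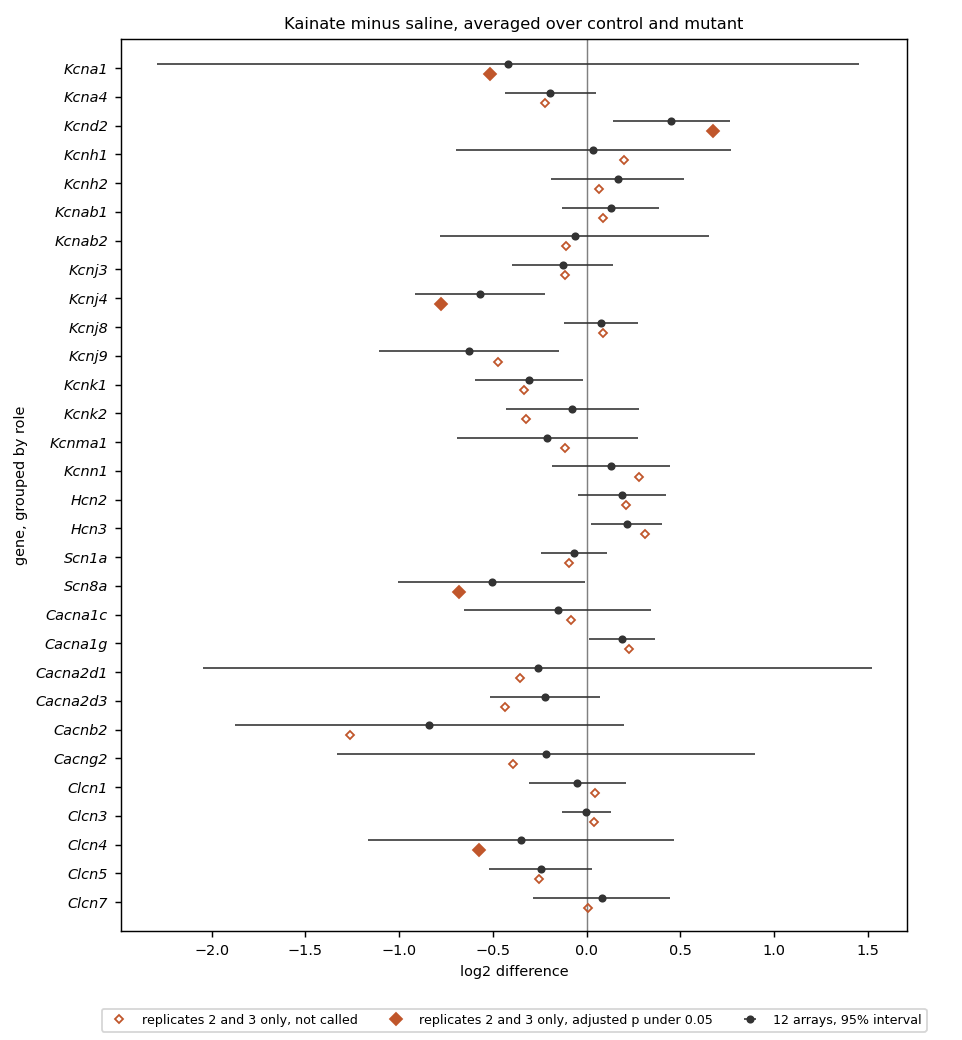
Log2 difference between kainate and saline, averaged over control and mutant (horizontal axis), for 30 channel genes (vertical axis); black points with lines are estimates from 12 arrays with 95% intervals, and diamonds are estimates from replicates 2 and 3, filled where the adjusted p was below 0.05. The widest intervals belong to Kcna1 (-2.29 to 1.45) and Cacna2d1, and 5 diamonds are filled.

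The kainate difference was then compared between genotypes, to ask whether any channel gene responded otherwise without CREB and CREM. None of the 30 passed, against 0% of all probe sets, and at an unadjusted p below 0.05 there was 1 of 30, or 3.33% (background 0.861%). That gene was Scn1a, the sodium channel that is prominent in fast-spiking interneurons. It read 9.90, 9.87 and 10.06 in control saline, 9.68, 9.83 and 9.47 in control kainate, 9.61, 9.53 and 9.85 in mutant saline, and 9.81, 9.79 and 9.86 in mutant kainate. Control saline was the highest group, and its arrays did not overlap those of control kainate or of mutant saline. The kainate difference was -0.29 ± 0.11 in controls (adjusted p = 0.596) and 0.16 ± 0.11 in mutants (adjusted p = 1.00). The difference between them, mutant minus control, was 0.44 ± 0.16 (95% interval 0.09 to 0.79; limma adjusted p = 0.939), with 0.42 in replicate 1 and 0.46 in replicates 2 and 3.

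A second Scn1a probe set, 94201_at, read 7.59 to 7.76 in control saline, 7.04 to 7.86 in control kainate, 7.48 to 7.81 in mutant saline and 7.56 to 7.80 in mutant kainate, and all groups overlapped. Its kainate difference was -0.18 ± 0.18 in controls and 0.09 ± 0.18 in mutants, the same signs as in the brighter probe set. Its lowest control kainate value, 7.04, came from the third array. The interaction of this second probe set was 0.27 ± 0.25 (limma adjusted p = 0.939). For the other 29 channel genes the interaction lay between -0.69 (Cacna2d1) and 0.47 (Cacnb2), with standard errors from 0.12 to 1.69. The interaction of Kcnj4 was -0.05 ± 0.31 (95% interval -0.74 to 0.65), so a difference in response of up to about 0.7 log2 units remained within its error. The kainate comparisons in controls and mutants use separate arrays.

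Genotype was compared within each treatment. Under saline, 0 of 30 channel genes passed (background 0.137%), and 1 of 30 was at an unadjusted p below 0.05 (background 2.57%). This was again Scn1a, at -0.28 ± 0.11 in mutants against controls (adjusted p = 1.00), a comparison that shares its control saline arrays with the kainate comparison above. Under kainate, 0 of 30 passed (background 0.354%), and none had an unadjusted p below 0.05 (background 4.96%). Averaged over treatments, 0 of 30 passed (background 0.612%), and 1 of 30 was at an unadjusted p below 0.05 (background 5.98%). That was Kcnd2, lower in mutants by -0.34 ± 0.14 (95% interval -0.65 to -0.02; adjusted p = 0.630), and its second probe set gave -0.38 ± 0.23 (adjusted p = 0.630). The 95% interval lay within a 2-fold change for 24 of 30 genes, and for 17 of 30 within 0.5 log2 units.

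Counted by arrays that do not overlap, 2 of 30 channel genes were apart between saline and kainate in controls (Hcn3 higher and Scn1a lower; background 7.04%). In mutants 5 of 30 were apart, or 16.7% (background 12.4%), with Kcnd2 higher and Kcnj9, Kcnj3, Kcna4 and Clcn1 lower. Between genotypes under saline 2 of 30 were apart (Scn1a and Cacna2d3, both lower in mutants; background 7.08%), and under kainate 0 of 30 (background 8.99%). Cacna2d3, the alpha2delta subunit, read 8.82, 9.10 and 9.10 in control saline and 8.70, 8.66 and 8.70 in mutant saline, a difference of -0.32 ± 0.19 (adjusted p = 1.00). In both averaged comparisons 0 of 30 were apart in each stratum, against 3.01% of probe sets for kainate and 1.73% for genotype.

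**Figure D3:**
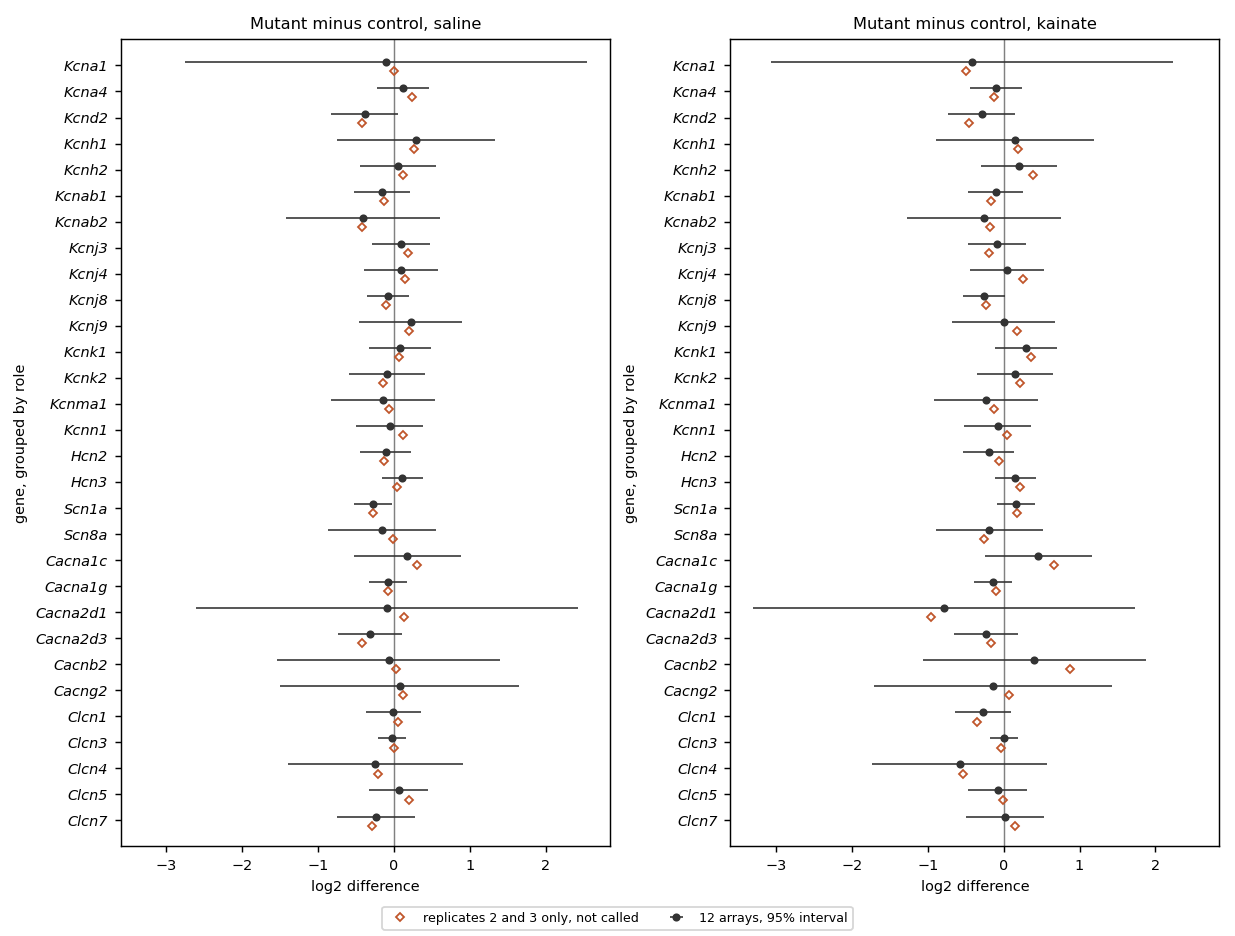
Log2 difference between mutant and control (horizontal axes) under saline (left) and kainate (right) for 30 channel genes (vertical axes); black points with lines are estimates from 12 arrays with 95% intervals and open diamonds are estimates from replicates 2 and 3, none of which reached an adjusted p below 0.05. The interval of Scn1a under saline, centred on -0.28, is the one that leaves 0 out.

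Clcn4 and Clcn3, whose promoters printed above hold the full element, did not differ between genotypes at the threshold. Clcn4 was at -0.24 ± 0.52 under saline and -0.58 ± 0.52 under kainate (adjusted p = 0.547), and Clcn3 at -0.02 ± 0.08 and 0.00 ± 0.08. For Clcn4, replicates 2 and 3 alone gave -0.21 under saline and -0.54 under kainate, and replicate 1 alone gave -0.31 and -0.65. The second Clcn4 probe set gave -0.23 ± 0.18 and -0.18 ± 0.18. All these Clcn4 values were negative, and none passed where a test was made. For the brightest Clcn3 probe set the intervals, -0.21 to 0.16 and -0.18 to 0.19, were among the narrowest of the 30 genes. The interval of the brighter Clcn4 probe set reached from -1.73 to 0.58 under kainate. Intervals of the further Clcn3 probe sets were wider, widest for 94464_at at -0.57 to 0.69 under saline and -0.77 to 0.50 under kainate.

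Probe sets of 1 gene did not always move alike. For 12 of the 30 genes there were 14 further probe sets, of which 9 lay above level 4 and none passed in any comparison. For kainate averaged over genotypes, 6 of these 9 had the sign of the chosen probe set, and for genotype averaged over treatments 7 of 9. The count was 6 of 9 for kainate in controls, 3 of 9 for kainate in mutants, 4 of 9 for the interaction and 5 of 9 for genotype under saline and under kainate. Among the 9 were the Clcn3 probe sets 94463_at, 94464_at and 94465_g_at. The chosen Clcn3 probe set was at -0.00 for kainate averaged over genotypes and 0.01 in mutants. Those values are too small for their sign to carry weight, so the counts measure agreement only roughly. Besides Kcnd2, Clcn7, the lysosomal exchanger, read differently in its dimmer probe set 104391_s_at, which gave -0.85 ± 0.25 (limma adjusted p = 0.169) beside 0.08 ± 0.17 for the brighter. Its values were 5.93, 6.40 and 6.51 in control saline, 6.06, 5.09 and 5.43 in control kainate, 5.79, 6.73 and 6.42 in mutant saline, and 6.05, 5.16 and 4.86 in mutant kainate, so that kainate was lower in replicates 2 and 3 but not in replicate 1. Clcn3 probe set 94463_at gave -0.46 ± 0.17 (adjusted p = 0.278), with kainate again lower in replicates 2 and 3 only, beside -0.00 for the brightest.

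**Figure D4:**
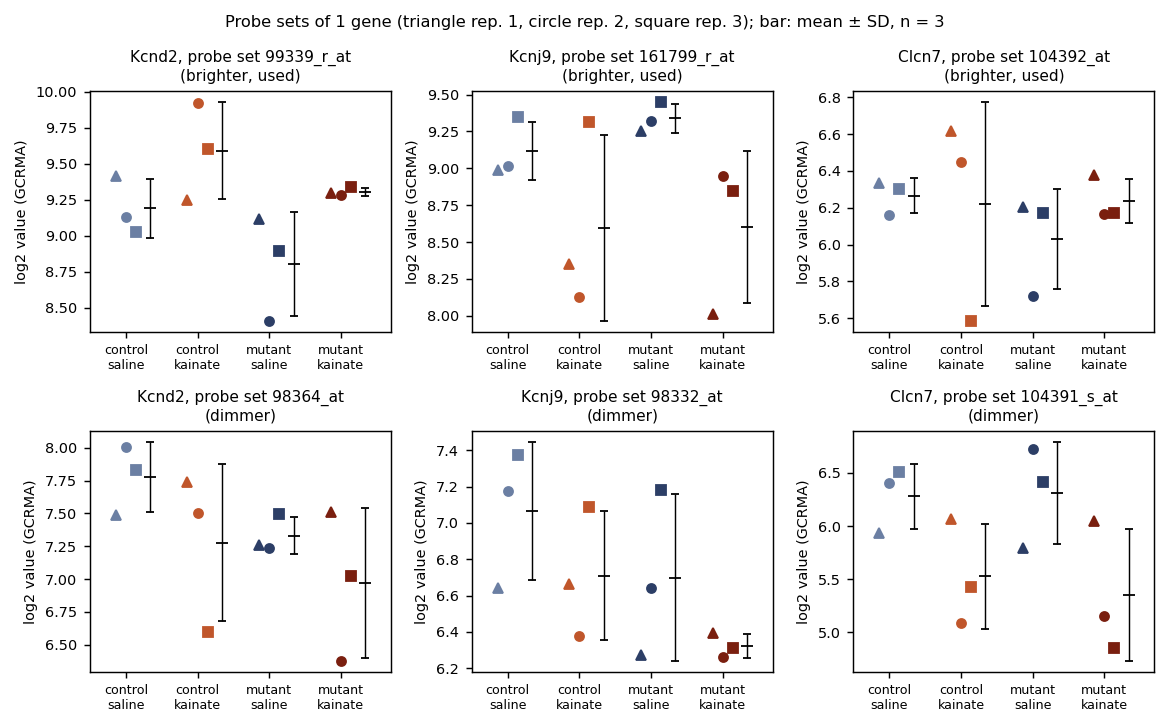
Log2 values (vertical axes, each panel on its own scale) on each array for the brighter probe set (top) and a dimmer one (bottom) of Kcnd2, Kcnj9 and Clcn7; triangles, circles and squares are replicates 1, 2 and 3 and bars are mean ± SD of 3 arrays. In Kcnd2 the group means after kainate are higher in the top panel and lower in the bottom one, while in Kcnj9 they are lower in both.

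A list of 39 genes whose products bind or localise these channels was also examined. Of these, 21 were measured, and 1 passed for kainate averaged over genotypes (0.942% of all probe sets). This was Gem, a small GTPase that binds calcium channel beta subunits and is itself induced by activity. With saline it read 3.59 ± 0.18 (SD, n = 3) in controls and 3.84 ± 0.15 in mutants, and with kainate 4.86 ± 0.29 and 5.63 ± 0.45. It rose by 1.53 ± 0.15 (SE; limma adjusted p = 0.000543), by 1.26 in controls (adjusted p = 0.0421) and by 1.79 in mutants (adjusted p = 0.00356). The interaction was 0.53 ± 0.31 (adjusted p = 0.939). Fgf13, which binds sodium channels, had a difference of -1.43 ± 0.44 that did not pass (adjusted p = 0.192). The median over the 21 genes was -0.03, against 0.03 over all probe sets and -0.04 over the 6686 probe sets above level 4. For genotype averaged over treatments none of the 21 passed. Of 14 ion pumps and chloride cotransporters 7 were measured, and none passed for kainate or for genotype in the averaged comparisons.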

How the data were processed

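Gene expression was measured with 12 Affymetrix MG-U74A arrays, 3 per group, each a pool of RNA from 3 animals. The deposited values are log2 expression values that the authors made with GCRMA in R 2.4.1, per the submitters' processing notes; no counts of reads exist for arrays, and the number of arrays limits the precision. GCRMA removes background by probe sequence and places undetected probe sets near a floor. The values are relative within a probe set, so no comparison rests on levels of different genes.

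The 12488 probe sets include 66 controls, which were removed, leaving 12422. GEO's platform annotation gave 10833 of them 1 symbol, 396 several and 1193 none; 10817 of the 10833 matched RefSeq through their Entrez identifier. Groups came from the sample titles. Differences were fitted with limma 3.58.1 in R 4.3.3 (lmFit and eBayes, 4 group means, 8 residual and 2.48 prior degrees of freedom), two-sided, in 7 contrasts: kainate in controls, in mutants and averaged; genotype under saline, under kainate and averaged; and the interaction. Benjamini-Hochberg adjustment ran over all probe sets, with a threshold of 0.05. The code was tested on simulated data. The ± after a difference is its standard error and the ± after a level is a standard deviation.

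Named were genes past the threshold, genes at an unadjusted p below 0.05 whose arrays did not overlap between the sides, those nearest the level limit, probe sets of opposite sign, and partner genes past the threshold. The members and the gene lists were chosen with earlier results of these data known. Protein sequences were not analysed here. Alternatives covered the replicate 1 arrays, the replicate number, normalisation, filters, the variance model, array weights, probe sets per gene and single arrays.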

Additional observations from a re-analysis of the deposited data

Results flagged for a closer look

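Scn1a was the only one of the 30 channel genes whose arrays moved in opposite directions in the 2 genotypes: every control kainate array lay below the control saline mean, and every mutant kainate array lay above the mutant saline mean. The same values, read the other way, put every mutant saline array below the control saline mean and every mutant kainate array above the control kainate mean. Both readings give the same difference between differences, 0.44 on the log2 scale, because they are 1 quantity of the same 12 arrays. The difference did not pass the test of the interaction itself (limma adjusted p = 0.939). The pattern of opposite moves for kainate was met by 133 of 12422 probe sets, or 1.07%, and that for genotype by 424, or 3.41%. In the second Scn1a probe set the arrays of all groups overlapped; the following estimates had the signs of the brighter one, namely kainate at -0.18 in controls and 0.09 in mutants, genotype at -0.05 under saline and 0.22 under kainate, and an interaction of 0.27 ± 0.25 (limma adjusted p = 0.939). Genotype averaged over treatments had opposite signs, 0.09 in the second probe set and -0.06 in the brighter one. On control kainate arrays the second probe set read 7.50, 7.86 and 7.04, beside a control saline mean of 7.65. The 7.04 came from the third control kainate array, which also had the narrow interquartile range. Groups of 3 arrays were too small to look for single outlying arrays gene by gene.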

How the results depend on the processing

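No channel gene passed in the comparison over all 12 arrays, and the count of 0 stood for all 7 contrasts under median centring, quantile normalisation, a test of only the probe sets above 4, an intensity trend with a robust prior, the mean of all probe sets per gene, a fit of only the arrays compared (not run for the averaged contrasts and the interaction, which use all), and a level limit of 5 or none. It moved when the replicate 1 arrays were treated apart. For kainate averaged over genotypes, it became 2 with replicate 1 as a block (2.68% of all probe sets passed) and 5 with replicates 2 and 3 only (6.26%). With settings added after the data were seen, it became 4 with that block and without the third control kainate array (Cacna1g, Kcna1, Kcnj3 and Kcnj9; 4.6% of all probe sets) and 3 with that block, an intensity trend and a robust prior (3.22%). Leaving out single arrays gave 0 to 1. With limma array weights it was 14 for kainate averaged (16.4% of all probe sets passed there), 1 for kainate in controls (3.06%), 6 for kainate in mutants (13%), 2 for genotype under saline (5.47%) and 2 for genotype averaged (3.85%); limma's default weights did not converge, so gene-by-gene weights, from 0.032 to 6.17, were used. For kainate in controls it was 1 with replicates 2 and 3 only (1.18%). The replicate block gave 1 for kainate averaged (Kcna1, adjusted p = 0.0372, with 1.97% of all probe sets) and 0 for the other contrasts. Kcnj4 had an adjusted p of 0.0628 in that fit for kainate averaged. The replicate numbers were not taken to pair arrays, since for number 3 only 4 of 6 correlations of deviations exceeded 0.1. Those that did not, at -0.01 and -0.003, both involved the third control kainate array, so that reason rests on a single array. Of 690 values for kainate averaged under alternatives, 30 passed (10 higher, 20 lower), and 19 of 30 genes kept their sign throughout; for the interaction 4 of 30 did. The causes were not tested.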
